A study of Rattus norvegicus with 32 samples.

Results

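The transcripts of *Prss16*, *Foxn1* and *Aire*, genes of thymic epithelium, and of *Rag1* and *Rag2*, which encode the V(D)J recombinase, were followed across spleen, bone marrow–derived macrophages (BMDM) and brain of rats with a targeted mutation of *Csf1r*, the receptor for CSF1. These 5 genes are among the 14557 with a single symbol on the Rat Gene 2.1 ST array of Affymetrix, and each was read by 1 probe set. They were chosen by their log2 intensities on the spleen arrays, so their levels there are given as a description with no test of their own. Spleens came from adult female DA/SD rats that were *Csf1r*-/- (KO), *Csf1r*+/- (HET) or *Csf1r*+/+ (WT), with 2 arrays per genotype. A further 2 arrays, replicates 2 and 3, held BMDM of male DA rats with an intact *Csf1r* locus, grown in CSF1. Brain tissues of KO, HET and WT females (striatum, hippocampus, pituitary gland and olfactory bulbs) gave 24 more arrays, 2 per tissue and genotype. The tissues were not perfused, and the mutant line descends from 1 targeted embryonic stem cell clone, in which a reporter and selection cassette disrupts the first coding exon of *Csf1r*. All values are log2 of the deposited intensity unless a ratio is named, and an intensity of 20, or 4.32 on the log2 scale, is used as the lower limit of measurement.

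The thymus is the organ in which T cells mature. Its epithelium is built under the transcription factor FOXN1, which is required for the organ to form in mouse and rat. Cortical epithelium displays the peptides on which thymocytes are first selected, and PRSS16, a serine protease of that compartment, takes part in making the peptides shown on MHC class II. In the medulla, AIRE switches on genes of other tissues so that self-reactive thymocytes can be removed. RAG1 and RAG2 form the enzyme that cuts the gene segments of T cell receptors in thymocytes and of antibodies in B cell precursors of the bone marrow. Mature lymphocytes of the spleen largely no longer use it.

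RefSeq promoters of the rat assembly GRCr8, 250 bases before to 50 after the annotated start, were matched for 5 of 5 genes. The promoters of *Prss16*, *Rag1* and *Rag2*, the members with the widest range over the spleen arrays, are shown from 5′ to 3′ on each gene's own strand. They lie at chr17:47209831-47210130 (plus strand), chr3:108383135-108383434 (minus strand) and chr3:108357149-108357448 (plus strand). Capitals mark matches, on either strand, to the core GACGC that FOXN1 binds in mouse, to CCAAT, to TATAAA, to the GATA-type sequence AGATAA and to the E-box CANNTG, which basic helix-loop-helix factors bind.
Prss16: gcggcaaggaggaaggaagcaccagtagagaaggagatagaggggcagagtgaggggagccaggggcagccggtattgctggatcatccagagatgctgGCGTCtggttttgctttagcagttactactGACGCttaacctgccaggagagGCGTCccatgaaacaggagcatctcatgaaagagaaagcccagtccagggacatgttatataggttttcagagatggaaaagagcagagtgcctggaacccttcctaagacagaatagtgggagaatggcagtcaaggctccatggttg
Rag1: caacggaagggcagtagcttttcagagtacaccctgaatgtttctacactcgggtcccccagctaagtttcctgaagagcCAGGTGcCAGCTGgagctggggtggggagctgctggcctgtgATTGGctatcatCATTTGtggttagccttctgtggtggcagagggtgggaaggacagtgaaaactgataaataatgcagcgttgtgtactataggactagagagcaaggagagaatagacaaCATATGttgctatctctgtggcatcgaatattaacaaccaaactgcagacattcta
Rag2: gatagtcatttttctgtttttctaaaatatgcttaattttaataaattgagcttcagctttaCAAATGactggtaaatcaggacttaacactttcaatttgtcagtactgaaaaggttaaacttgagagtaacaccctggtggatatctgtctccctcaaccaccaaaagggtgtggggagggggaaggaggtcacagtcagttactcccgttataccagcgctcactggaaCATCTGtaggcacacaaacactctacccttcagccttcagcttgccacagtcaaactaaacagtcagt

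The *Prss16* promoter held GACGC 3 times, beginning 151, 121 and 99 bases before the start. Of 27457 rat promoters of the same length, 27.3% held GACGC at least once and 2.17% held it at least 3 times. The *Foxn1* promoter held no match to any of the motifs, and the *Aire* promoter held CCAAT once, TATAAA once and an E-box once. In the *Rag1* promoter CCAAT began 128 bases before the start and E-boxes were found 4 times. The *Rag2* promoter held 2 E-boxes and none of the other motifs. E-boxes were common, with at least 1 in 71.6% of the promoters, whereas CCAAT was found in 37.7%, TATAAA in 14.3% and AGATAA in 11.3%. No 2 matches overlapped within the promoter of a member. *Rag1* and *Rag2* are neighbours on chromosome 3 and run in opposite directions, and their promoters share no motif of this set other than the E-box.

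The spleen arrays did not form 3 pairs. Across 9507 genes with at least 1 of the 8 spleen and BMDM arrays at 20 or more, Pearson's r was 0.975 between the arrays labelled KO 2 and HET 2, but 0.828 between KO 1 and KO 2 and 0.828 between HET 1 and HET 2. The WT pair had 0.983. *Tlx1*, a transcription factor without which the spleen does not form in mouse, stood at 3.56 on KO 2 and 2.86 on HET 2, against 7.38 to 7.87 on the other spleen arrays. *Tcf21*, a factor of splenic mesenchyme, stood at 2.92 on KO 2 and 3.21 on HET 2, and both genes were thus below the limit on these 2 arrays. Over the 3 stromal genes on the array of 7 listed, the summed intensity was 27.5 on KO 2 and 23.3 on HET 2, against 311 on KO 1, 413 on HET 1 and 362 to 492 on the WT spleens. *Csf1r* itself had 4.81 and 3.28 in KO, 9.75 and 7.05 in HET and 10.37 and 10.18 in WT spleens (replicate 1, then replicate 2). The labels call both arrays spleen, but with thymus transcripts high and *Tlx1* and *Tcf21* below the limit, whether their RNA came from spleen alone is uncertain. Within the values of KO 2 and HET 2, an effect of genotype and another source of the RNA cannot be told apart. The same holds for every spleen contrast that includes either array. KO 1 and HET 1 carry the same genotype labels. The median member stood 0.24 above the WT mean on KO 1 and 0.20 below it on HET 1. Every array keeps its deposited label here, and the members' levels in the spleen set are given array by array. In RNA of whole tissue, fewer cells of a type and less RNA per cell cannot be told apart.

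*Prss16* reached 10.76 (log2) on KO 2 and 10.47 on HET 2. It had 2.98 on KO 1, 2.42 on HET 1, 2.59 and 2.66 on the WT spleens, and 2.35 and 3.34 on the BMDM arrays. These 6 arrays lay within 1 log2 unit of each other and below the limit, and 7.13 separated the highest of them from HET 2. Against the mean of the WT spleens *Prss16* stood 8.13 higher on KO 2 and 7.84 higher on HET 2, the highest difference of all 9507 genes on both arrays. The WT means of all 5 members lie below the limit, so their differences from WT are differences from background and give no exact fold. Relative to an intensity of 20, *Prss16* stood 86.5 times higher on KO 2 and 70.8 times higher on HET 2.

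*Foxn1* stood at 7.97 on KO 2 and 7.43 on HET 2. On KO 1 it had 4.25, on HET 1 3.90, on the WT spleens 4.40 and 3.70, and on the BMDM arrays 3.65 and 4.59. The gap between HET 2 and the highest of the other 6 arrays, BMDM replicate 3, was 2.85. Its ratio to an intensity of 20 was 12.5 on KO 2 and 8.63 on HET 2. It was the only member that reached 20 on any of the other 6 arrays, narrowly, on WT 1 and BMDM replicate 3.

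*Aire* did not follow the other members. It had 4.34 on KO 2, which barely reached the limit, and 3.62 on HET 2. KO 1 had 3.81, HET 1 3.08, the WT spleens 3.40 and 3.20, and the BMDM arrays 3.96 and 3.29. HET 2 therefore lay inside the range of the other 6 arrays, and KO 2 lay above all of them. The differences from the WT mean were 1.05 on KO 2 and 0.32 on HET 2, which ranked 809 and 2691 among 9507 genes.

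*Rag1* stood at 10.38 on KO 2 and 10.50 on HET 2. It had 2.91 on KO 1, 2.31 on HET 1, 2.83 and 2.50 on the WT spleens, and 2.19 and 2.83 on the BMDM arrays. No other array came within 7 log2 units of these 2, with a gap of 7.47 between KO 2 and KO 1. The differences from the WT mean, 7.71 on KO 2 and 7.83 on HET 2, were the second highest of all genes on each array, after *Prss16*. The intensity on KO 2 was 66.6 times and that on HET 2 72.2 times the limit of 20.

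*Rag2* had 9.11 on KO 2 and 9.50 on HET 2. KO 1 had 3.31, HET 1 3.32, the WT spleens 3.35 and 3.61, and the BMDM arrays 4.07 and 3.85. The highest of these 6 arrays lay 5.04 below KO 2. Against the WT mean *Rag2* stood 5.63 higher on KO 2, rank 7 of 9507, and 6.02 higher on HET 2, rank 5. Its ratios to an intensity of 20 were 27.6 and 36.2.

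**Figure D1:**
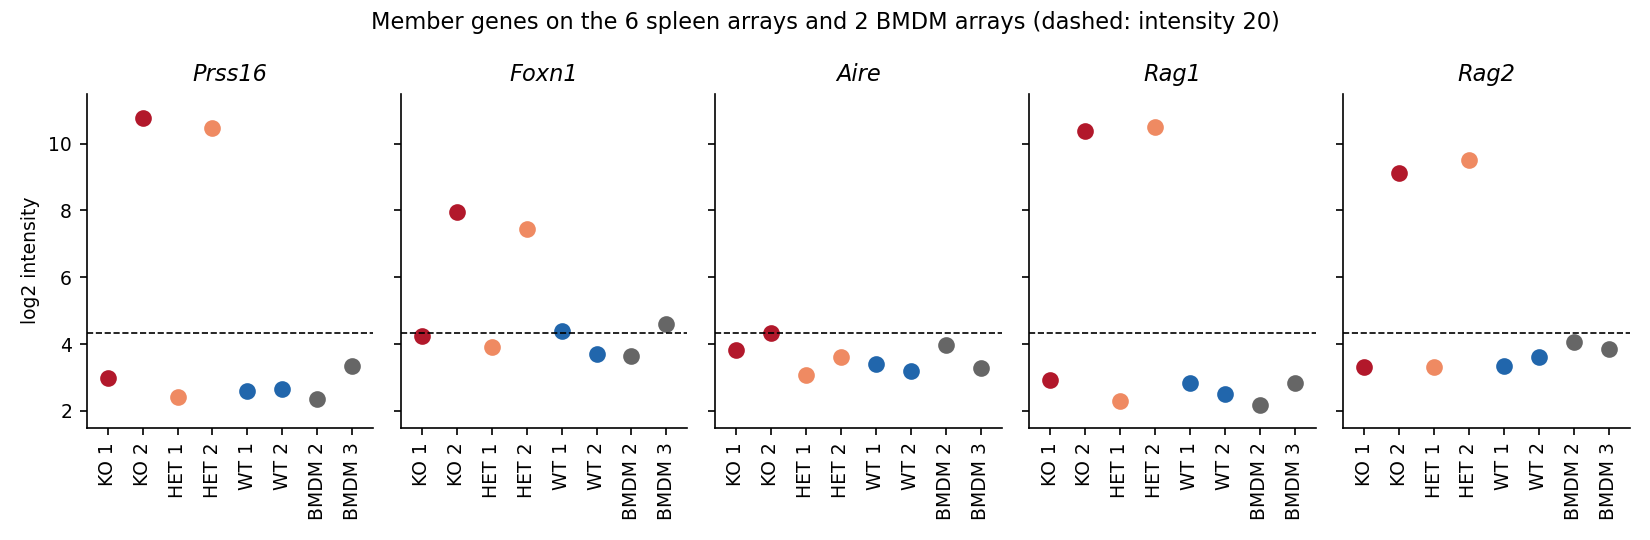
Log2 intensity (vertical axis) of each member gene on the 6 spleen arrays and 2 BMDM arrays (horizontal axis), 1 point per array, with KO in red, HET in orange, WT in blue and BMDM in grey. KO 2 and HET 2 stand apart for *Prss16*, *Foxn1*, *Rag1* and *Rag2*, at 7.43 to 10.76, and *Aire* stays between 3.08 and 4.34.

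The 5 genes passed the intensity filter in unequal ways. *Prss16*, *Rag1* and *Rag2* passed it through KO 2 and HET 2 alone, *Aire* through KO 2 alone, and *Foxn1* through 4 arrays. A difference of at least 3 from the WT mean was found for 4 of 5 members on KO 2, where 95 genes, or 0.999% of those tested, were as high, and for 4 of 5 on HET 2, where 94 genes, or 0.989%, were as high. On KO 1 it was found for 0 of 5 (0.021% of all genes) and on HET 1 for 0 of 5 (0.168%). The same arrays chose the members, so these counts are a description. The median member stood 5.63 above the WT mean on KO 2 and 6.02 on HET 2, but 0.24 above it on KO 1 and 0.20 below it on HET 1.

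**Figure D2:**
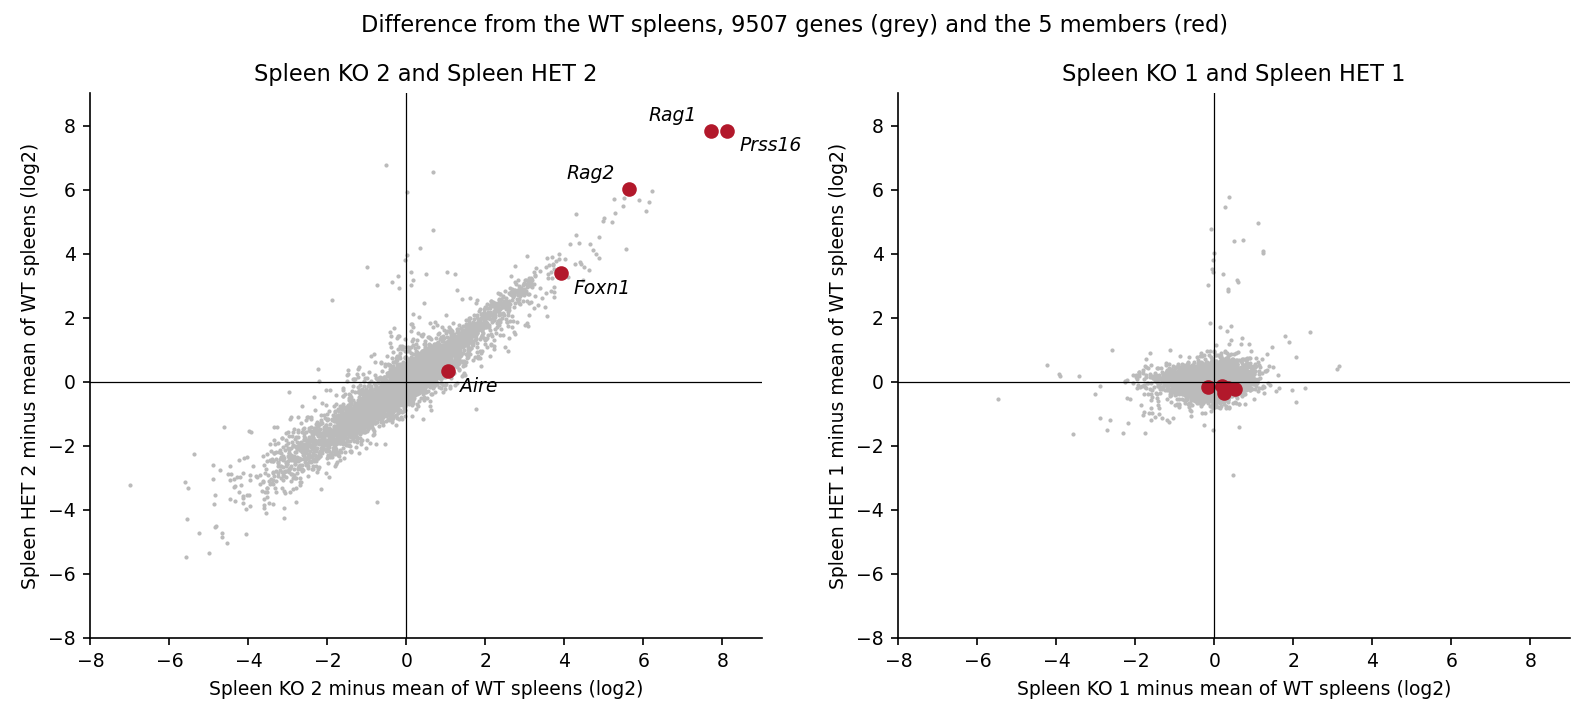
Log2 difference from the mean of the WT spleens for all 9507 tested genes (grey) and the 5 members (red), HET 2 against KO 2 on the left and HET 1 against KO 1 on the right. On the left *Prss16* and *Rag1* lie farthest to the upper right, near 8 on both axes, and *Aire* lies within the cloud, and on the right all 5 members lie between -0.36 and 0.51.

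The genotype means combined high and low arrays. *Prss16* averaged 6.87 ± 5.50 in KO, 6.45 ± 5.69 in HET and 2.63 ± 0.05 in WT spleens (SD, n = 2 arrays each), and *Rag1* had SDs of 5.28 in KO, 5.79 in HET and 0.23 in WT spleens. In a limma fit of the 8 arrays in 4 groups, KO minus WT was 4.24 for *Prss16* (SE 3.21), 3.98 for *Rag1* (SE 3.17), 2.73 for *Rag2* (SE 2.42), 2.05 for *Foxn1* (SE 1.51) and 0.78 for *Aire* (SE 0.34). HET minus WT was 3.82 for *Prss16*, 3.73 for *Rag1*, 2.93 for *Rag2*, 1.61 for *Foxn1* and 0.05 for *Aire*. At an adjusted p under 0.05, 0 of 5 members and 0% of the 9507 genes were called in either contrast, and since these arrays chose the members nothing is read from their count. At an unadjusted p under 0.05, limma had 49 genes higher and 204 lower in KO, and 25 higher and 24 lower in HET spleens, while the methods' t-test with Benjamini-Hochberg adjustment called 0 in KO. Without KO 2, the KO minus WT difference was 0.35 for *Prss16*, 0.24 for *Rag1* and -0.17 for *Rag2*, and without HET 2 the HET minus WT differences of all 5 genes were negative, from -0.36 to -0.15. The labels call the arrays biological replicates but do not say which rat a number stands for, and the p-values therefore measure only the spread between these arrays.

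The arrays KO 2 and HET 2 could be compared with each other in 4 of the 5 genes. *Prss16* and *Foxn1* were higher on KO 2, by 0.29 and 0.54. *Aire*, at 4.34 on KO 2 and 3.62 on HET 2, was at the limit or below it and gives no measured difference. The recombinase members were lower on it, by 0.12 for *Rag1* and by 0.39 for *Rag2* (KO 2 minus HET 2 of -0.12 and -0.39). Over all 9507 genes this difference had a median of 0.02, quartiles of -0.14 and 0.18 and an SD of 0.409. *Rag1* lay between these quartiles. *Prss16* and *Rag2* had differences smaller in size than this SD, and *Foxn1* exceeded it. Among 16 other genes of thymic epithelium, 14 were higher on KO 2, with a median of 0.41, against 5234 of all 9507 genes, and among 14 genes of immature thymocytes 9 were higher, with a median of 0.06. Each value compares 1 array with 1 array, so the difference has no replicate check.

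The other genes of thymic epithelium, 23 listed without the members and 16 measured, gave the second view of the epithelial members. All 16 were above both WT spleens on KO 2 and on HET 2, with medians of 2.52 and 2.03 relative to the WT mean (all genes, 0.04 and 0.01). Of all 9507 genes, 45.6% were above both WT spleens on KO 2, 43.5% on HET 2 and 37.8% on both arrays. *Psmb11*, *Ccl25*, *Pax9*, *Krt8*, *Krt14*, *Krt17*, *Epcam* and *Fezf2* reached the limit only on KO 2 and HET 2. *Cldn3* reached it only on KO 2. These genes passed the intensity filter only through the arrays on which they were high, so their part of the count and of the medians is a description. For the epithelium list, the medians were -0.13 on KO 1 and 0.01 on HET 1. *Psmb11*, the thymus-specific proteasome subunit of cortical epithelium, had 2.98 and 7.73 in KO, 3.26 and 7.36 in HET and 3.48 and 2.64 in WT spleens. *Ccl25*, the chemokine that draws T cell precursors into the thymus, had 4.23 and 7.84 in KO, 3.53 and 7.02 in HET and 3.76 and 3.72 in WT spleens. The replicate 2 arrays of KO and HET were thus the high ones for both genes. Both passed the filter through these arrays alone, so their likeness to *Prss16* and *Foxn1* is a description and no support. *Krt17*, an epithelial keratin, differed from the WT mean by 4.88 on KO 2 and 3.87 on HET 2. At the lower end stood *Kitlg*, the ligand of the KIT receptor, with 0.09 on KO 2 and 0.36 on HET 2, *Tnfrsf11a*, the RANK receptor of medullary epithelium, with 0.25 and 0.24, and *Cldn3*, a tight junction gene, with 0.96 and 0.22, whose level of 3.89 on HET 2 was below the limit. None of the 16 was called in KO minus WT or HET minus WT (0 at an unadjusted p under 0.05 as well, limma). Since 0% of all 9507 genes were called in either contrast, nothing is read from this count. Of the 16 genes, 9 had a RefSeq promoter of the kind shown above, and 4 of these 9 (44.4%, against 27.3% of all promoters) held GACGC, namely *Ctsl*, *Ly75*, *Fezf2* and *Kitlg*.

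The enzymes that work with the RAG proteins differed much less as a group. Of 18 listed genes of terminal transferase, end joining and the response to breaks, 14 were measured, with a median of 0.44 on KO 2, 0.54 on HET 2, 0.14 on KO 1 and -0.08 on HET 1. Of the 14, 10 were above both WT spleens on KO 2 (45.6% of all genes) and 10 on HET 2 (43.5%). *Dntt*, terminal transferase, which adds nucleotides at V(D)J junctions and is otherwise restricted to lymphoid precursors, had 3.87 and 9.10 in KO, 3.37 and 9.33 in HET and 3.52 and 3.64 in WT spleens. *Dntt* passed the intensity filter only through KO 2 and HET 2, so its part in this list and in later ones is a description. *Lig4*, the ligase of end joining, had 5.33 and 8.97 in KO, 5.03 and 7.43 in HET and 5.37 and 5.42 in WT spleens. *Dclre1c*, which encodes the Artemis nuclease that opens the hairpins RAG leaves, had 9.66 on KO 2 and 9.60 on HET 2, against 7.53 and 7.47 in WT spleens. With the break-marking histone gene *H2ax*, at 2.36 above the WT mean on KO 2 and 2.09 on HET 2, these 4 genes had the largest differences of the list on both arrays. The histone genes around *Prss16*, given below, are not in this list and were higher on both arrays too. The ubiquitous end joining genes *Xrcc5*, *Xrcc6*, *Prkdc* and *Nhej1* lay between -0.26 and 0.68 on both arrays. Lower than in both WT spleens on KO 2 and HET 2 were the gap-filling polymerase genes *Poll* (-1.55 and -1.20) and *Polm* (-0.58 and -0.73), the kinase gene *Atm* (-0.75 and -0.74) and *Nhej1* (-0.22 and -0.26), 4 of the 14 genes, where 34.7% of all genes were lower on both arrays. None of the 14 was called by limma in either spleen contrast, and none had an unadjusted p under 0.05. As 0% of all 9507 genes were called, nothing is read from this count.

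The RAG genes are active in T and B cell precursors, and a list of each lineage was followed. Of 14 measured genes of immature thymocytes (19 listed, several of them also in mature T cells), 13 were above both WT spleens on KO 2 and on HET 2, with medians of 2.07 and 1.95, where 45.6% of all genes were above both on KO 2 and 43.5% on HET 2. The medians were -0.70 on KO 1 and 0.00 on HET 1. *Dntt*, counted among the 13, passed the intensity filter only through KO 2 and HET 2, so its part of the count is a description. *Ccr9*, the receptor for CCL25, had 4.88 and 9.05 in KO, 5.77 and 9.34 in HET and 5.33 and 5.64 in WT spleens. The coreceptor gene *Cd8b* differed from the WT mean by 3.12 on KO 2 and 3.09 on HET 2, *Cd4* by 1.28 and 1.24, and *Sox4*, a factor of early lymphocytes, by 2.34 and 2.26. *Cd1d1*, which presents lipids to thymocytes, was the exception, at -0.31 and -0.16. The 10 measured genes of mature T cells had medians of -0.79 on KO 1 and -0.09 on HET 1. On KO 2 and HET 2 they went both ways, with medians of 1.48 and 1.30. Above both WT spleens on each array were 6 of them, *Cd3e*, *Cd3d*, *Cd3g*, *Cd247*, *Cd2* and *Cd28*, genes of the T cell receptor complex and its costimulators, by 1.40 to 2.55 over the WT mean on KO 2 and 1.23 to 2.50 on HET 2. The other 4 lay below the WT mean. *S1pr1*, the receptor by which T cells leave lymphoid organs, differed by -2.55 on KO 2 and -2.42 on HET 2, and *Klf2*, a factor that drives *S1pr1*, by -1.15 and -0.80. *Il7r*, the IL-7 receptor, differed by -0.73 and -0.60, and *Ccr7*, the homing receptor of naive T cells, by -0.20 and -0.54, and on KO 2 *Ccr7* lay between the WT spleens.

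Genes of B cell precursors were not high with *Rag1* and *Rag2* as a list. Of 12 listed without the members, 8 were measured, and their median was -0.81 on KO 2 and -0.40 on HET 2. On KO 1 and HET 1 the medians were 0.11 and -0.04. The measured genes are not confined to precursors, and *Vpreb1* and *Vpreb2* were not measured. *Il7r* had 9.02 and 9.18 and *Cd93* 8.47 and 8.25 on the BMDM arrays. *Ebf1* had 9.16 and 9.13 on the WT spleens. *Igll1*, which encodes part of the surrogate light chain of the pre-B receptor, had 3.70 and 3.84 in KO, 3.89 and 4.33 in HET and 4.04 and 3.69 in WT spleens, under the limit of 20 on every spleen array but HET 2. *Vpreb3* had 5.19 and 2.21 in KO, 4.75 and 2.46 in HET and 5.11 and 4.72 in WT spleens, and was thus below the limit on KO 2 and HET 2 and above it on the other spleen arrays. It was also below the limit on the BMDM arrays, at 2.12 and 1.96, where the RAG genes were at background. *Dntt* and *Sox4*, which thymocytes share, were above both WT spleens on KO 2 and HET 2. *Dntt* passed the intensity filter through these arrays alone. The 6 measured genes of mature B cells had medians of -4.16 on KO 2 and -3.06 on HET 2. On KO 1 and HET 1 their medians were 0.11 and -0.05. Their summed intensity was 286 on KO 2 and 651 on HET 2, against 4969 to 5870 on the WT spleens. None of the genes in these lists was called by limma in either spleen contrast, where 0% of all 9507 genes were called.

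**Figure D3:**
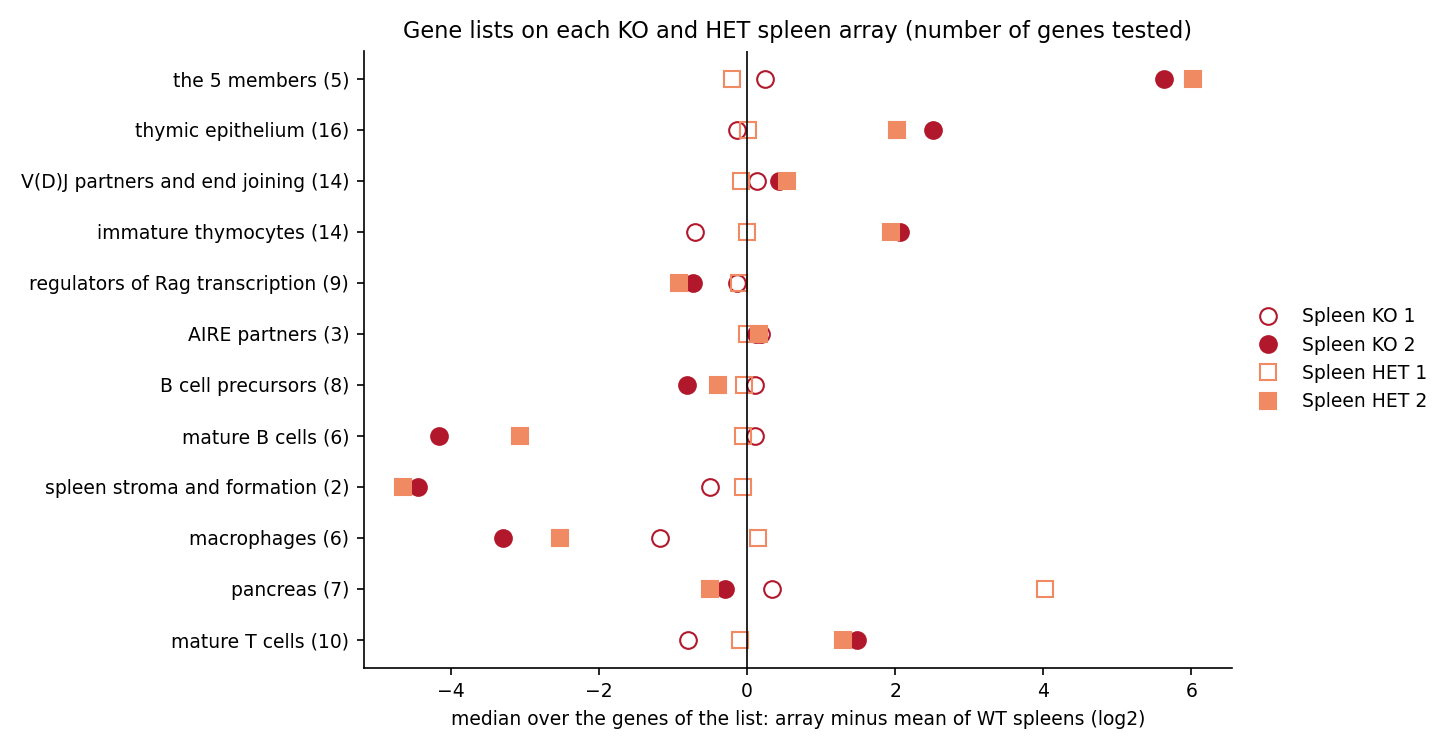
Median log2 difference from the mean of the WT spleens (horizontal axis) for the 5 members and 11 gene lists (number of genes tested in brackets) on KO 1, KO 2, HET 1 and HET 2, as open and filled circles and squares. On KO 2 and HET 2 the thymic epithelium and immature thymocyte lists lie between 1.95 and 2.52 and the mature B cell and spleen stroma lists below -3, and the pancreas list stands out on HET 1 at 4.03.

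The transcription factors known to act on the RAG genes went both ways on KO 2 and HET 2, and no difference between lineages was tested. Of 9 measured of 14 listed, *Myb*, with 6.85 and 10.36 in KO, 6.42 and 10.39 in HET and 6.78 and 6.85 in WT spleens, and the T lineage factor *Gata3*, with 6.29 and 10.38 in KO, 7.39 and 10.17 in HET and 7.57 and 7.42 in WT spleens, were high on the replicate 2 arrays of KO and HET. The chromatin organizer *Satb1* differed from the WT mean by 2.18 on KO 2 and 2.03 on HET 2. *Cbfb*, the partner of the RUNX factors, differed by 0.22 and 0.26. The B lineage factors *Pax5* and *Ebf1* were lower. *Pax5* had 9.74 and 5.41 in KO, 9.21 and 6.30 in HET and 9.46 and 9.27 in WT spleens, and *Ebf1* had 9.51 and 5.11 in KO, 9.10 and 6.78 in HET and 9.16 and 9.13 in WT spleens. The ETS factor *Spi1*, used by macrophages and B cells, had 7.44 and 5.41 in KO, 7.95 and 5.67 in HET and 8.09 and 8.08 in WT spleens. *Foxo1*, which acts in both lineages, differed from the WT mean by -1.68 on KO 2 and -1.44 on HET 2, and *Foxp1* by -0.73 and -0.92. Of the 9 factors, 4 were above and 5 below both WT spleens on KO 2 (45.6% and 39.9% of all genes), with the same numbers on HET 2 (43.5% and 41.6%), and the list medians were -0.73 and -0.92. Of 11 genes for proteins that bind AIRE or act with it, 3 were measured, *Cdk9*, *Parp1* and *Prkdc*, and their median was 0.12 on KO 2 and 0.16 on HET 2.

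Genes of other cell types differed between the same arrays as well, and their part in the members' values was not tested. The 6 measured macrophage genes had medians of -3.29 on KO 2 and -2.52 on HET 2, against -1.18 on KO 1 and 0.15 on HET 1. On HET 1, where the members were at WT levels, 7 of 7 measured genes of the exocrine pancreas were above both WT spleens (27.8% of all genes), with a median of 4.03 and a summed intensity of 3037, but their median on HET 2 was -0.50 and on KO 2 -0.29.

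The genes most like the members over the 8 arrays were ranked by Pearson's r of log2 values, among 1475 genes with a range of at least 3. The points share 2 high arrays, so r near 1 describes that split and no finer relation. For the mean of *Prss16*, *Foxn1* and *Aire*, the 10 genes of highest r, from 0.987 to 0.993, were *Hmga2*, *Isl1*, *Ppp1r1c*, *Rd3l*, *Depdc1*, *Pdzrn4*, *RT1-N2*, *Anxa8*, *Psmb11* and *Dntt*. For the mean of *Rag1* and *Rag2*, they were *Dntt*, *RT1-N2*, *Hmga2*, *Cd200l2*, *Tecta*, *Tdrd5*, *Lrguk*, *Pdzrn4*, *Thy1* and *Gjb6*, with r up to 0.996, and 4 genes were in both lists. *Hmga2*, a chromatin protein of growing and embryonic cells, had 2.51 and 5.62 in KO, 2.70 and 5.32 in HET and 2.73 and 2.53 in WT spleens. *RT1-N2*, a class Ib gene of the rat MHC, had 4.50 and 11.27 in KO, 4.72 and 10.99 in HET and 5.05 and 5.03 in WT spleens, and *Thy1*, a surface glycoprotein of rat thymocytes and neurons, had 5.10 and 11.19 in KO, 5.91 and 11.17 in HET and 6.18 and 5.64 in WT spleens. All of the genes named here had their 2 highest values on KO 2 and HET 2. The 5 genes of lowest r with the mean of all members, from -0.989 to -0.978, were *Cd300lf*, *Evi2a*, *Sema6b*, *Nlrp3* and *Hmox1*. *Hmox1*, the heme oxygenase of macrophages that recycle iron, had 8.44 and 5.11 in KO, 8.79 and 4.55 in HET and 8.65 and 8.68 in WT spleens.

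Among the members, r over the 8 arrays was 0.998 for *Prss16* with *Rag1*, 0.989 for *Rag1* with *Rag2* and 0.988 for *Prss16* with *Foxn1*, and from 0.561 to 0.574 for *Aire* with each of the others. On the 6 arrays other than KO 2 and HET 2 the members were below the limit but for *Foxn1* on 2 arrays, and no correlation over those arrays is given.

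The genes next to the members were followed on the same arrays. *Rag1* and *Rag2* are adjacent in the RefSeq order, with *Iftap* beside *Rag2* and *Traf6* beside *Rag1*. *Traf6*, an adaptor of Toll-like receptor signaling, differed from the WT mean by 0.46 on KO 2 and 0.45 on HET 2, *Iftap* by 0.88 and 0.73, *Prr5l* by -1.08 and -1.35 and *Lrrc4c* by -0.12 and 0.11. All 4 neighbours were thus within 1.35 of the WT mean on these 2 arrays. Around *Foxn1*, *Unc119* had -0.96 and -1.15, *Pigs* -0.24 and -0.26, *Slc13a2* -0.12 and 0.01 and the folate transporter gene *Slc46a1* 0.76 and 0.73. Beside *Aire*, *Icoslg*, the ligand of the costimulator ICOS, had -2.08 on KO 2 and -1.54 on HET 2, and *Gatd3a*, *Pfkl* and *Cfap410* lay between -0.43 and 0.35. *Prss16* lies among replication-dependent histone genes, and these were higher too. *H2ac12* differed from the WT mean by 2.97 on KO 2 and 2.87 on HET 2, *H2bc12* by 1.59 and 1.97, *Hist1h4m* by 1.03 and 1.23 and *H2bc8* by 1.91 and 1.80. Histone genes are near-identical copies that share probes, so which of them was measured is uncertain.

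**Figure D4:**
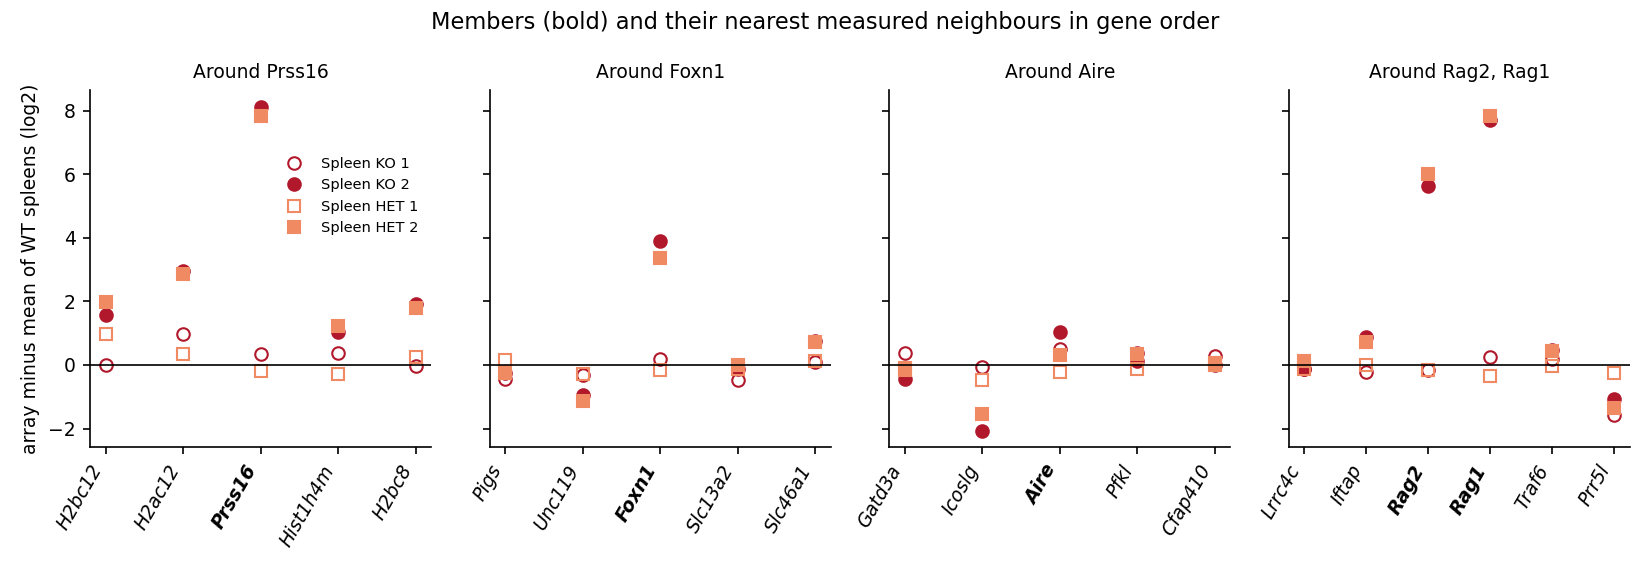
Log2 difference from the mean of the WT spleens (vertical axis) for each member (bold) and its nearest measured named genes in RefSeq order (horizontal axis, not to scale), on KO 1 and KO 2 (circles) and HET 1 and HET 2 (squares). *Rag1* and *Rag2* lie above 5 on KO 2 and HET 2 while their neighbours lie between -1.35 and 0.88, and the histone genes around *Prss16* reach 2.97.

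The brain and pituitary arrays, whose values point to a normalization apart from the spleen set, gave a background on their own scale. On 24 arrays *Prss16* ranged from 2.40 to 3.30 (median 3.01), *Rag1* from 1.81 to 3.04 (median 2.34) and *Rag2* from 2.15 to 3.10 (median 2.44), and no array reached an intensity of 20 for these genes. *Foxn1* ranged from 3.43 to 4.75 (median 3.93) and *Aire* from 3.03 to 4.58 (median 3.53), and each passed 20 on 1 array, *Foxn1* on striatum KO 1 and *Aire* on striatum KO 2. The 5 genes were therefore at background in all 4 tissues with those 2 exceptions. In *Prss16*, the medians were 2.94 over KO, 3.02 over HET and 2.86 over WT arrays (n = 8 arrays each), and the ranges overlapped. For *Aire* the highest values were in the striatum, with 4.17 and 4.58 in KO, 3.52 and 4.18 in HET and 4.25 and 3.75 in WT rats, and the genotypes overlapped there.

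The methods give 2 female rats of each genotype, so the 4 tissues share animals. The labels do not say which rat a replicate number stands for. With the tissues averaged per genotype and replicate number, limma called 124 of 10663 genes in KO minus WT (1.16%), 9 of them higher (0.0844%). Of the members, 2 of 5 could be tested, and 0 were called. KO minus WT was 0.13 for *Foxn1* (SE 0.10, adjusted p = 0.805 from limma) and 0.09 for *Aire* (SE 0.11, adjusted p = 0.908 from limma). With no intensity filter it was 0.07 for *Prss16* (adjusted p = 0.943), -0.20 for *Rag1* (adjusted p = 0.764) and -0.22 for *Rag2* (adjusted p = 0.672), again from limma. These values were not part of the choice of members. None of the 14 tested genes of thymic epithelium and none of the 13 of the RAG partner list was called. Among the regulators 1 of 9 fell, *Spi1*, by 2.05 (adjusted p = 0.00139 from limma), in the thymocyte list *Cd4*, which rat macrophages and microglia also express, fell by 1.83 (adjusted p = 0.00249), and in the precursor and T cell lists *Il7r* fell by 1.20 (adjusted p = 0.00657). These 3 genes are not specific to the thymus, and of 5 tested macrophage genes 4 fell in the same fit. The arrays labelled olfactory bulbs and pituitary gland carry another tissue in their description field, which names the striatum, and they keep the tissue of their title here. Their markers went against the titles as well. *Gh1*, the growth hormone of the pituitary, stood at 12.68 to 12.91 on the 6 arrays titled olfactory bulbs and at 5.23 to 7.37 on the 6 titled pituitary gland, and *Th*, a gene of olfactory bulb interneurons, at 2.71 to 3.94 and 9.12 to 10.22. The members were at background on both sets of 6, and the average over tissues does not depend on which is which.

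**Figure D5:**
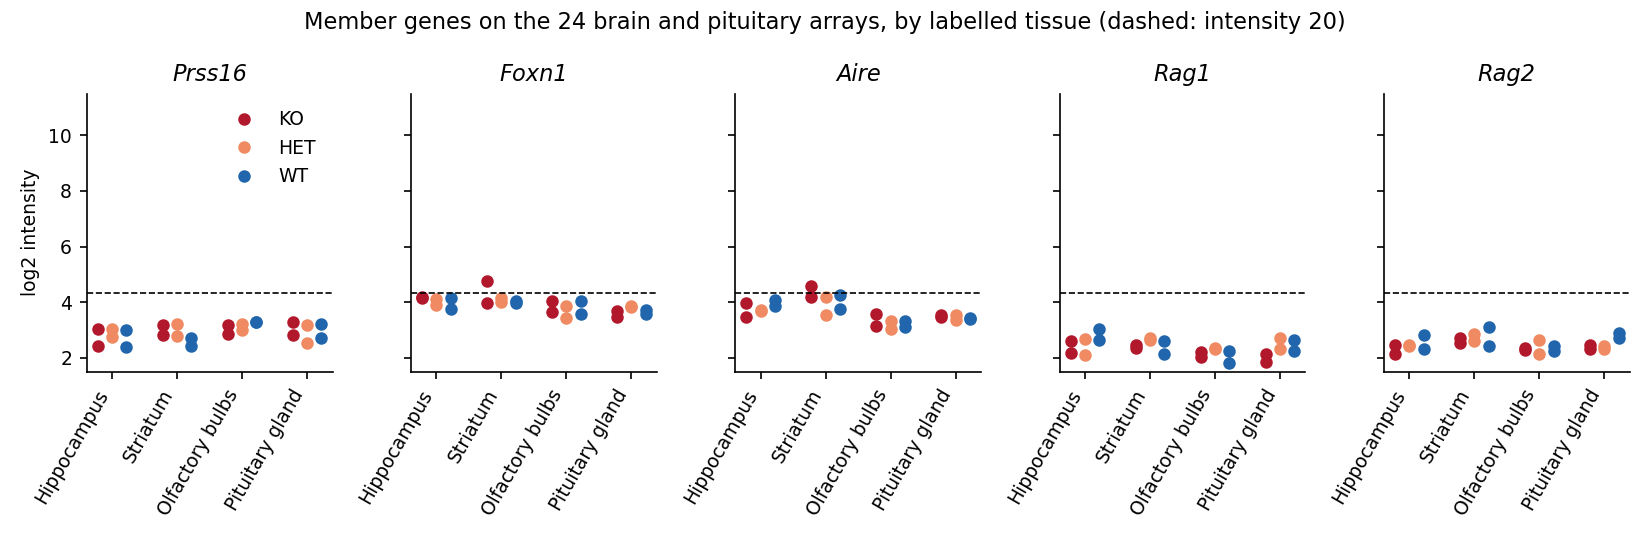
Log2 intensity (vertical axis) of each member gene on the 24 brain and pituitary arrays by labelled tissue (horizontal axis), 1 point per array, with KO in red, HET in orange and WT in blue and a dashed line at an intensity of 20. All points lie below 5, and only 1 *Foxn1* point (4.75) and 1 *Aire* point (4.58) lie above the line.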

How the data were processed

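RNA of 32 samples was measured on the Rat Gene 2.1 ST array of Affymetrix, 1 sample per array. The authors normalized the arrays with RMA in R/Bioconductor (versions not given in the sources used here), and deposited a linear intensity for each of 36685 probe sets. The 8 spleen and BMDM arrays and the 24 brain and pituitary arrays shared almost no exact values (0 to 1 per pair across sets), so each set was analysed on its own. Per array the median intensity lay between 16.8 and 19.9 in the first set and between 15.1 and 21.7 in the second, and the number of arrays limits the precision.

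Intensities were put on the log2 scale with Python 3.11.15. Of the probe sets, 14824 had 1 symbol, 829 several and 21032 none in the platform annotation, and a symbol was represented by its probe set of highest mean. limma 3.58.1 in R 4.3.3, checked on simulated data, tested genes that reached an intensity of 20 on any array of the set, with Benjamini-Hochberg adjustment and a threshold of 0.05. The spleen fit had 4 groups on 8 arrays, and the brain fit had 6 values, the mean of 4 tissues per genotype and replicate number. Members, gene lists and tests were chosen with earlier results of these data known, so the lists give no independent support. Named genes were the members, the genes of highest and lowest r with them, their nearest measured neighbours, and in the lists the calls, the 3 largest differences in each direction and defining markers. A few others (*Dclre1c*, *Cd8b*, *Cd4*, the rest of the mature T cell and RAG factor lists, and the genes named for small counts) were picked after their values were seen. Alternatives were other filters, probe set rules, scalings, tests and sets of arrays, the replicate number as a block, and leaving out each array. Promoters were taken from a RefSeq table of GRCr8. Columns of all 32 arrays were used.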

Additional observations from a re-analysis of the deposited data

How the results depend on the processing

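The 0 calls of KO minus WT in the spleen became 1 (*Clec4m*, lower) with WT, KO and BMDM arrays only and 6, all lower, without both HET 2 and KO 2, and leaving out single arrays gave 0 to 1. HET minus WT gave 0 to 2 (*Thrsp* and *Ucp1*, higher, without HET 1). The 124 brain calls became 187 with trend and robust variance, 1 (*Ltc4s*) with the methods' t-test (289 higher and 450 lower at an unadjusted p under 0.05) and 218 with 24 arrays in 12 groups, a fit that counts tissues of the same rats as separate samples, so that its p-values are too small. Leaving out single replicate numbers gave 73 to 121, lowest without WT replicate 1. No member was called in any of them. KO minus WT of *Rag2* turned to -0.17 without KO 2, and also without both HET 2 and KO 2. Without HET 2, HET minus WT turned to -0.20 for *Prss16*, -0.15 for *Foxn1*, -0.22 for *Aire*, -0.36 for *Rag1* and -0.16 for *Rag2*, and *Aire* turned to -0.05 without WT 2. In these fits an arm keeps 1 array, whose spread is assumed from the other groups. Over single arrays left out, KO minus WT ran from 0.35 to 8.13 for *Prss16*, from 0.24 to 7.71 for *Rag1* and from -0.17 to 5.63 for *Rag2*. HET minus WT ran up to 7.84 for *Prss16*, 3.38 for *Foxn1*, 0.32 for *Aire*, 7.83 for *Rag1* and 6.02 for *Rag2*.

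With the replicate number as a block, limma called 0 genes in KO minus WT and 0 in HET minus WT of the spleen, and 97 in KO minus WT of the brain (2 higher, 95 lower). The arrays share only a number. The deviations of same-numbered spleen arrays correlated at 0.829 between KO and HET, 0.154 between HET and WT and 0.0762 between KO and WT, and those of the brain values from -0.0982 to 0.0900. The block changed no call of a member. The single-array differences of the members from the WT mean changed sign in 0 of 50 settings, with shifts of up to 0.35, and with each array centred on its own median *Prss16* stood at 8.18 on KO 2 and 7.90 on HET 2. Of the 10 genes most like each set of members, 4 and 3 were shared with a ranking on linear intensity and 1 and 0 with Spearman's rho, so the named genes depend on the measure. Each member has 1 probe set, and levels below an intensity of 20 bound only what could be measured.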
